A study of Mus musculus with 6 samples.

Results

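Genes for receptors of the common gamma chain cytokines, and for the feedback inhibitors that these cytokines induce, were compared in CD8 T cells sorted from the pancreas of AI4 and Rip-B7xAI4 mice. The set of 10 genes was listed by name: the receptor genes Il2ra, Il2rb, Il2rg, Il7r, Il15ra, Il21r and Il4ra and the feedback genes Cish, Socs2 and Socs3. A gene was taken through the probe that the platform annotation gives to it alone, and where there were several such probes, through the one with the highest mean over all 6 arrays. This found 9 of the 10 among 19929 genes in all. Il2rg, the common gamma chain itself, was not analysed here, because no probe in the annotation used carried its symbol.

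The T cells of both groups expressed AI4, a T cell receptor transgene that recognises beta cells, on the C57BL/6.H2g7/g7 background. AI4 mice developed type 1 diabetes. Rip-B7xAI4 mice resisted the disease and carried in addition the transgene Rip-B7x, in which the rat insulin promoter places the inhibitory ligand B7x (Vtcn1) on beta cells. The labels give 3 biological replicates a group. For each, cells of pooled pancreata were sorted by anti-CD8 antibody and the MimA2/H-2Db tetramer, and total RNA went onto 1 array. The age and number of the mice were not given in the sources used here. An effect of B7x cannot be told apart from one of the disease state, because transgene and resistance go together. In sorted bulk samples, fewer cells of a type and less RNA per cell cannot be told apart either.

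Cytokines of this family signal through a receptor built from the common gamma chain and a private chain, which activate the kinases JAK1 and JAK3 and, downstream, STAT5 or another STAT protein. Interleukin-7 maintains resting T cells, while interleukin-2 and interleukin-15 share the beta chain CD122 and drive the growth and cytotoxic function of CD8 T cells. Antigen raises the alpha and beta chains of the interleukin-2 receptor and lowers the interleukin-7 receptor. The SOCS family closes the loop: STAT proteins induce Cish, Socs2 and Socs3, whose products bind the receptor or the kinase and stop the signal.

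Values are log2 expression as the authors deposited them, differences are Rip-B7xAI4 minus AI4, and the test is limma's moderated test, with Benjamini-Hochberg adjustment across the 13950 genes that were tested and a limit of 0.05. All 9 genes passed the filter on dim genes. None of the 9 passed the adjusted limit, which 0.00717% of all genes tested, a single gene, passed. Without adjustment 2 of the 9, Il2ra and Il2rb, had a p under 0.05, both higher in Rip-B7xAI4, against 8.73% of all genes tested (5.56% higher and 3.17% lower). The median difference of the 9 genes was -0.13, beside -0.10 for all genes tested. Of the 9, 4 were positive and 5 negative, beside 5437 positive and 8513 negative of all genes tested. A p that misses the limit does not show that the groups are alike, so each difference is given with its 95% interval.

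**Figure D1:**
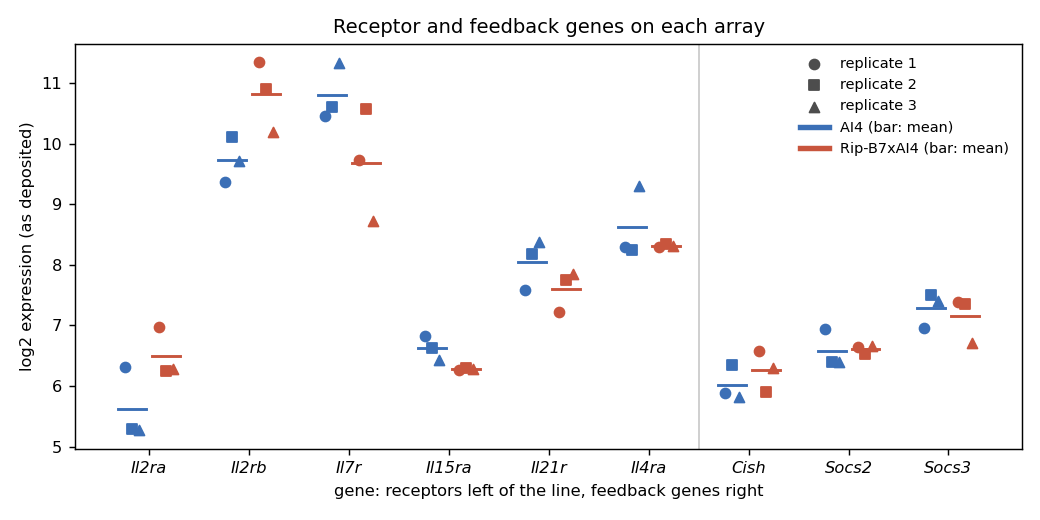
Log2 expression of each receptor and feedback gene (y axis) on each of the 6 arrays, with AI4 in blue and Rip-B7xAI4 in red, 1 symbol per replicate and a bar at the group mean. The groups separate for Il2rb (Rip-B7xAI4 above) and Il15ra (Rip-B7xAI4 below) and overlap for the other 7 genes.

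Il2rb, the beta chain CD122 of the interleukin-2 and interleukin-15 receptors, had the smallest p of the set. Its probe (10430344) read 9.36, 10.11 and 9.71 in AI4 replicates 1, 2 and 3 and 11.34, 10.90 and 10.20 in Rip-B7xAI4 replicates 1, 2 and 3. All 3 Rip-B7xAI4 arrays thus lay above all 3 AI4 arrays, by 0.09 at the closest point, between AI4 replicate 2 and Rip-B7xAI4 replicate 3. An ordering with every Rip-B7xAI4 array above every AI4 array was found in 5.99% of all genes tested, and the reverse in 11.9%. The means were 9.73 ± 0.38 (SD, n = 3) and 10.81 ± 0.57 (SD, n = 3), a 2.12-fold difference. On the log2 scale the difference was 1.08 ± 0.34 (SE), with a 95% interval of 0.28 to 1.89 and limma adjusted p = 0.494 (unadjusted 0.0160). Il2rb ranked 451 of the 13950 genes by p. It was a bright gene on every array, at or above the 97.1 percentile of the array's genes.

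The difference of Il2rb was also fitted without the 2 arrays that held the most myeloid transcripts. The mean log2 level of 19 myeloid markers reached 8.86 on replicate 1 and 8.80 on replicate 3 of Rip-B7xAI4, against 6.04 on its replicate 2 and 5.92 to 6.42 on the AI4 arrays. Without Rip-B7xAI4 replicates 1 and 3 together, Il2rb differed by 1.17 ± 0.38 (SE), where the 1 Rip-B7xAI4 array left is taken to have the spread of AI4. With the myeloid mean as a covariate it differed by 1.21 ± 0.49. Within the groups that mean varied chiefly between Rip-B7xAI4 replicate 2 and replicates 1 and 3. The covariate fit thus also rests largely on replicate 2 and is not a separate check. Without AI4 replicate 1, where Il2rb was lowest, the unadjusted p was 0.0522, and the covariate gave 0.0502. In the other fits that kept 2 or more arrays a group it was under 0.05, with differences between 0.82 and 1.39 over all fits. Some single myeloid markers were above AI4 on Rip-B7xAI4 replicate 2 too, such as Cd68 at 7.35, against 6.21 to 6.49 in AI4. No fit took NK cell markers into account, whose mean was 6.02 to 6.71 in AI4, against 7.24 to 7.47 in Rip-B7xAI4. The part of other cells' RNA in the Il2rb difference was not tested beyond these fits.

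Il2ra, the alpha chain CD25 that gives the interleukin-2 receptor its high affinity and appears on recently activated cells, was dim. Its probe (10469278) read 6.32, 5.28 and 5.27 in AI4, against 6.97, 6.25 and 6.29 in Rip-B7xAI4, in replicate order. AI4 replicate 1 stood apart from the other two AI4 arrays and within the range of Rip-B7xAI4, so the groups overlapped. In AI4 replicates 2 and 3 the probe lay below the median of the array, so without a measure of background no fold is given. The difference was 0.88 ± 0.36 (SE), with a 95% interval of 0.03 to 1.73 and limma adjusted p = 0.566 (unadjusted 0.0441).

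The array that stood apart for Il2ra, AI4 replicate 1, also differed from the other AI4 arrays over all probes. Its Pearson r was 0.905 with AI4 replicate 2 and 0.913 with AI4 replicate 3, against 0.952 between those arrays. With each Rip-B7xAI4 array its r was lower than with either AI4 array. The mean of 12 T cell markers was 9.60 on it, against 10.24 and 10.13 on AI4 replicates 2 and 3. Why AI4 replicate 1 differed was not tested. It was the highest AI4 array for Gzmb and Ifng, but not for Prf1. Gzmb, the protease granzyme B, read 8.13 in AI4 replicate 1 and 5.49 and 5.16 in AI4 replicates 2 and 3, and Ifng, interferon gamma, read 6.76, 5.38 and 5.14 in the same order. Prf1, perforin, read 6.52, 6.60 and 6.88, lowest in replicate 1, and the costimulatory receptor gene Tnfrsf9 read 6.76, 6.63 and 6.58, close together. Leaving AI4 replicate 1 out, Il2ra differed by 1.23 ± 0.27 (SE), with limma adjusted p = 0.359 (unadjusted 0.00479). Leaving out instead AI4 replicate 2, AI4 replicate 3 or Rip-B7xAI4 replicate 1 brought the difference to 0.71, 0.70 and 0.64, with unadjusted p of 0.129, 0.133 and 0.137 in limma. Without Rip-B7xAI4 replicate 2 or 3 it was 1.01 and 0.99, with unadjusted p of 0.0520 and 0.0585, so the unadjusted p stayed under 0.05 on leaving out AI4 replicate 1 and no other single array. With the myeloid covariate it was 0.57 ± 0.49, and on leaving out both Rip-B7xAI4 arrays with myeloid transcripts 0.62 ± 0.52. Of the Rip-B7xAI4 arrays, the highest Il2ra was on replicate 1, 1 of the 2 with myeloid transcripts, while replicates 2 and 3 were close together. What part those transcripts have in the Il2ra difference was not tested beyond these fits.

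Il15ra, the alpha chain that presents interleukin-15 to neighbouring cells, was the other gene whose groups did not overlap. It (probe 10469289) read 6.82, 6.63 and 6.44 in AI4, against 6.27, 6.29 and 6.29 in Rip-B7xAI4. The 3 Rip-B7xAI4 arrays were close together and below AI4, with a gap of 0.15 to the lowest AI4 array. They lay at the 57.7 to 58.5 percentile of their arrays' genes, little above the middle of the range. The difference was -0.35 ± 0.17 (SE), with a 95% interval of -0.75 to 0.06 and limma adjusted p = 0.578 (unadjusted 0.0804). Without AI4 replicate 1, the highest, it was -0.25 ± 0.17. The Il15ra difference thus had the opposite sign to those of Il2ra and Il2rb.

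Il7r, the interleukin-7 receptor chain CD127 of naive and memory T cells, had the largest difference of the set in size and the widest spread. Its probe (10427628) read 10.46, 10.61 and 11.34 in AI4, against 9.74, 10.57 and 8.72 in Rip-B7xAI4. Rip-B7xAI4 replicate 2 lay inside the AI4 range, and replicates 1 and 3 lay below it. The means were 10.80 ± 0.47 (SD, n = 3) and 9.68 ± 0.92 (SD, n = 3), 2.18-fold lower in Rip-B7xAI4. The log2 difference was -1.12 ± 0.48 (SE), with a 95% interval of -2.28 to 0.03 and limma adjusted p = 0.566 (unadjusted 0.0548). Even the lowest of the 6 values was at the 94.9 percentile of its array's genes, so Il7r was among the bright genes in both groups.

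The size of the Il7r difference depended on which Rip-B7xAI4 arrays were kept. It was -1.15 ± 0.59 (SE) without replicate 1, the array with the highest myeloid mean. There Il7r, at 9.74, lay near the group mean of 9.68. Leaving out an array near its group mean moves a difference little, whatever RNA the array holds. The Il7r difference was -0.65 ± 0.38 without replicate 3, where Il7r was lowest, and -0.23 ± 0.43 (SE) without replicates 1 and 3 together. With the myeloid mean as a covariate, a fit that also rests largely on replicate 2, it was -0.33 ± 0.51. It was -1.57 ± 0.42 without replicate 2 (limma adjusted p = 0.387, unadjusted 0.00941). Quantile normalization, which evens out the spread of the arrays, gave -1.33 ± 0.42 (limma adjusted p = 0.501, unadjusted 0.0174). Mean expression of 12 T cell markers ran in the same order over the Rip-B7xAI4 arrays, at 9.80, 10.18 and 9.47 in replicates 1, 2 and 3, and Cd8a, the co-receptor used in the sort, read 9.71, 10.42 and 9.21. In AI4 the T cell markers stood at 9.60, 10.24 and 10.13 and Cd8a at 10.89, 10.43 and 10.10. With every array shifted by its own T cell marker mean, Il7r differed by -0.95 and Il2rb by 1.26, a setting that moved the median of all genes from -0.10 to 0.08. The part of other cells' RNA in the Il7r difference was not tested beyond these fits.

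**Figure D2:**
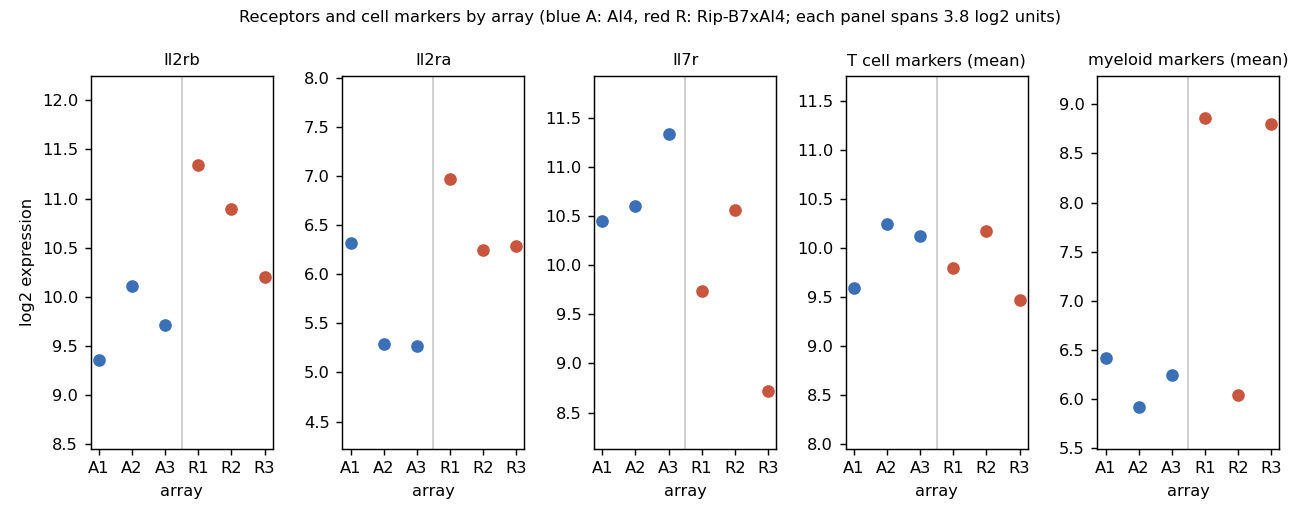
Log2 expression (y axis) of Il2rb, Il2ra and Il7r and the mean log2 expression of 12 T cell and 19 myeloid markers on each array (x axis), with A1 to A3 for AI4 replicates and R1 to R3 for Rip-B7xAI4 replicates. All panels span the same number of log2 units. Rip-B7xAI4 replicate 2, with myeloid markers at 6.04, has Il7r at 10.57, inside the AI4 range, and Il2rb at 10.90, above it.

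Il21r and Il4ra, the private chains for interleukin-21, which supports CD8 T cells during long exposure to antigen, and for interleukin-4, showed no separation of the groups. Il21r (probe 10557342) read 7.59, 8.17 and 8.38 in AI4, against 7.22, 7.75 and 7.85 in Rip-B7xAI4, a difference of -0.44 ± 0.28 (SE) with limma adjusted p = 0.596 and a 95% interval of -1.11 to 0.22. Without AI4 replicate 1, the lowest AI4 array, Il21r differed by -0.67 ± 0.25 (limma adjusted p = 0.596, unadjusted 0.0379). Il4ra (probe 10557326) read 8.29, 8.25 and 9.31 in AI4, against 8.30, 8.34 and 8.31 in Rip-B7xAI4. One array, AI4 replicate 3, made the whole Il4ra difference of -0.30 ± 0.30, since the other 5 arrays lay between 8.25 and 8.34. Without it the difference was 0.04 ± 0.17.

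Feedback genes are direct targets of STAT proteins, and the promoter stretches are shown for the STAT motif they hold. The STAT motif TTCNNNGAA, which reads the same on both strands, was searched in windows of 300 bases, from 250 before to 50 after each RefSeq start (GRCm38.p6). It occurred in 8.3% of 32851 promoters of that length and at least 2 times in 0.457%. Promoters were found for 8 of the 10 genes, 9 windows in all, of which those of Cish, Socs3 and Il7r held a match. Il2rb and Socs2 had no promoter in the set used, so they were not searched. The sites are given 5′ to 3′ on the strand of the gene, with the motif in capitals.
Cish, chr9:107296654-107296683, plus strand: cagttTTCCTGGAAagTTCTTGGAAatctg
Socs3, chr11:117969502-117969530, minus strand: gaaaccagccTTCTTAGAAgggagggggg
Il7r, chr15:9530000-9530028, minus strand: gttcaggagcTTCAGGGAAtaccaagatg
The 2 matches of Cish begin at bases 1 and 12 of the annotated transcript, and those of Socs3 and Il7r begin 154 and 142 bases before the start. A match describes the letters of this window and not binding by a factor.

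Cish, the SH2 protein that binds the interleukin-2 receptor and is induced through STAT5, did not separate the groups. Its probe (10588577) read 5.88, 6.35 and 5.82 in AI4, against 6.58, 5.90 and 6.30 in Rip-B7xAI4. Its 6 values crossed the medians of the arrays, 3 above and 3 below, so it was a dim gene. The difference was 0.24 ± 0.25 (SE), with a 95% interval of -0.34 to 0.83 and limma adjusted p = 0.678. Beside an Il2rb difference of 1.08 over the same arrays, no difference in Cish was detectable with these 3 arrays per group. Rip-B7xAI4 replicate 2, where Il2rb was higher than on any AI4 array, had Cish at 5.90, between AI4 replicates 1 and 2.

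Socs2, a regulator of growth hormone and cytokine signals, had the smallest difference of the set in size. Its probe (10372069) read 6.95, 6.39 and 6.40 in AI4, against 6.64, 6.54 and 6.65 in Rip-B7xAI4, a difference of 0.03 ± 0.21 (SE) with a 95% interval of -0.46 to 0.52 and limma adjusted p = 0.954. AI4 replicate 1 was the highest and the other two AI4 arrays the lowest, so the Rip-B7xAI4 values all lay between. A second probe for Socs2 (10394674) was dimmer, at 4.77 to 5.13 in AI4, against 4.99 to 5.36 in Rip-B7xAI4, below the filter when tested on its own.

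Socs3, the inhibitor of interleukin-6 type and other STAT3 signals, gave no direction that held between its probes. The probe used (10393449) read 6.95, 7.50 and 7.40 in AI4, against 7.38, 7.36 and 6.72 in Rip-B7xAI4, a difference of -0.13 ± 0.26 (SE) with a 95% interval of -0.75 to 0.48 and limma adjusted p = 0.825. A second probe (10383010) read 6.76, 7.08 and 6.33 in AI4, against 6.88, 7.53 and 6.71 in Rip-B7xAI4, a difference of 0.32 ± 0.30 with limma adjusted p = 0.668. The 2 probes thus disagreed in sign, and the groups overlapped on both.

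**Figure D3:**
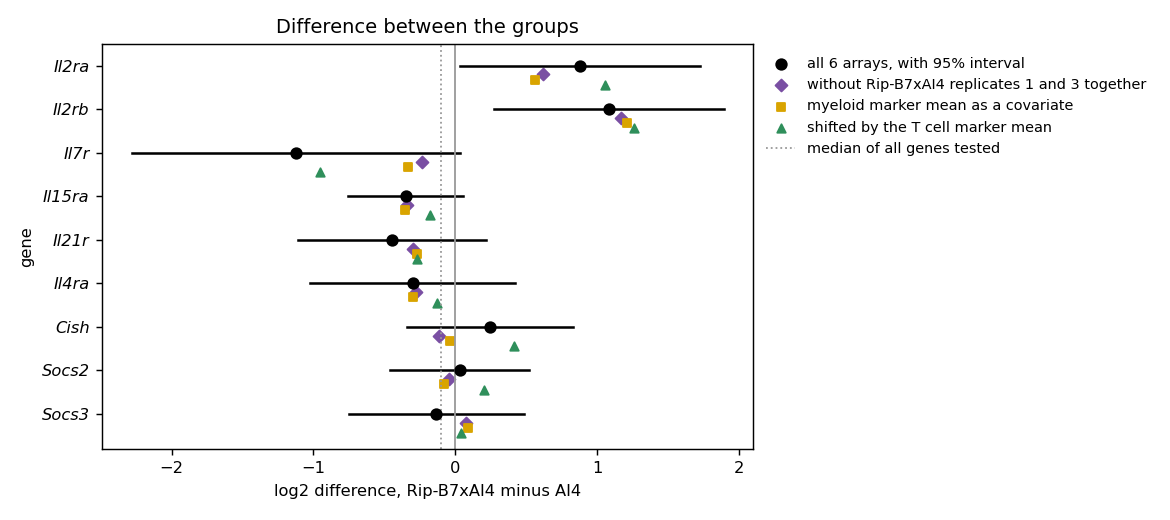
Log2 difference of each gene, Rip-B7xAI4 minus AI4 (x axis), from all 6 arrays with its 95% interval (black), and from 3 other fits named in the key. The intervals of Il2rb and Il2ra lie above 0, that of Il7r reaches from -2.28 to 0.03, and the diamond for Il7r without Rip-B7xAI4 replicates 1 and 3 lies at -0.23.

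The rest of the pathway was taken from lists of ligands, partner chains, kinases and STATs, other inhibitors, genes induced through STAT5 and regulators of the receptor genes. Of 82 such genes, 80 had a probe and 73 were tested. None passed the adjusted limit in limma, and 8 had an unadjusted p under 0.05, which is 11.0% of those tested beside 8.73% of all genes. All 8 were higher in Rip-B7xAI4, beside 5.56% of all genes tested in that direction and 3.17% in the other. Of the 8, 4 came from the list of genes induced through STAT5. The groups did not overlap for 9 genes in the higher and 2 in the lower direction, beside 5.99% and 11.9% of all genes tested. The same shares of all genes stand beside the counts per list given below. The lists were chosen with earlier results of these data known, so these shares are no test. Signs over the lists were 38 positive and 35 negative, with a median difference of 0.00. For all genes tested they were 5437 positive and 8513 negative, with a median of -0.10.

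Most ligand genes were dim. Of 8 ligands, 2 were bright enough to test, Il4 and Il13, and 0 had an unadjusted p under 0.05 in limma. Il2, the autocrine growth factor, read 5.01 to 5.39 in AI4, against 5.04 to 5.21 in Rip-B7xAI4. Il7, which stromal cells make, read 4.13 to 4.36 in AI4, against 3.81 to 4.12 in Rip-B7xAI4. Il15, a product of myeloid and stromal cells, read 4.28 to 4.66 in AI4, and 4.48, 4.47 and 5.88 over Rip-B7xAI4 replicates 1, 2 and 3. Of the 2 arrays with myeloid transcripts, replicate 3 was thus the highest for Il15, and replicate 1 read as low as replicate 2. Of the partner chains Il9r, Il13ra1 and Crlf2, 0 of 3 tested had an unadjusted p under 0.05.

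Genes of signal transduction came next. Of 17 kinases, STATs and adaptors tested, 1 had an unadjusted p under 0.05: Stam2, an adaptor that binds JAK kinases and sorts receptors in endosomes, differed by 0.57 ± 0.24 (SE), with limma adjusted p = 0.566. Jak1, the kinase bound to the private chains, differed by -0.14 ± 0.27. Stat5a and Stat5b, the transducers of interleukin-2 and interleukin-7, differed by -0.26 ± 0.20 and -0.32 ± 0.25. For neither STAT5 gene did the groups separate. Jak3, the kinase bound to the common gamma chain, was not analysed here.

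Among other inhibitors 1 of 20 tested had an unadjusted p under 0.05. This was Elob, elongin B, which joins the SOCS box to its ubiquitin ligase, and which read 7.52, 8.20 and 8.18 in AI4, against 9.98, 9.20 and 8.71 in Rip-B7xAI4. It differed by 1.33 ± 0.36 (SE) with limma adjusted p = 0.462. Its groups did not overlap, beside 5.99% of all genes tested in that direction. Socs1, the strongest inhibitor of JAK kinases in T cells, differed by -0.23 ± 0.22, with 7.01 to 7.68 in AI4, against 6.95 to 7.13 in Rip-B7xAI4. Neither Socs1 nor any of the other SOCS genes tested (Socs4, Socs5, Socs6 and Socs7) had an unadjusted p under 0.05.

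Among genes that STAT5 can induce, 4 effector genes were higher in Rip-B7xAI4 at an unadjusted p under 0.05, out of 18 tested: Ifng, Gzmb, Prf1 and Tnfrsf9 (4-1BB). Gzmb differed by 4.08 ± 0.77 (SE), Ifng by 3.47 ± 0.51, Prf1 by 1.63 ± 0.31 and Tnfrsf9 by 1.15 ± 0.37, with limma adjusted p between 0.157 and 0.504. For each of them the groups did not overlap, an ordering found in that direction in 5.99% of all genes tested. In AI4 replicates 2 and 3, Gzmb and Ifng lay below the median of the array, as Il2ra did, so the size of these 2 differences rests in part on dim values with no measure of background, and no fold is given. These genes are also known to answer to the antigen receptor and to T-box factors. Bcl2, the survival gene that interleukin-7 maintains, read 9.35, 8.61 and 9.08 in AI4, against 9.06, 8.60 and 8.49 in Rip-B7xAI4, a difference of -0.29 ± 0.26 (SE). The groups overlapped for Bcl2, as they did for Il7r.

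Regulators of the receptor genes had 2 of 13 tested with an unadjusted p under 0.05. Tbx21, the T-box factor T-bet that drives Il2rb in CD8 T cells, read 6.70, 6.79 and 6.67 in AI4, against 7.22, 8.36 and 7.50 in Rip-B7xAI4. The groups did not overlap, beside 5.99% of all genes tested in that direction. The Tbx21 difference was 0.97 ± 0.30 (SE) with limma adjusted p = 0.493. Among Rip-B7xAI4 arrays Tbx21 was highest on replicate 2 and Il2rb on replicate 1. A link between Tbx21 and Il2rb was not tested. Runx1 differed by 0.58 ± 0.23 with limma adjusted p = 0.566.

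**Figure D4:**
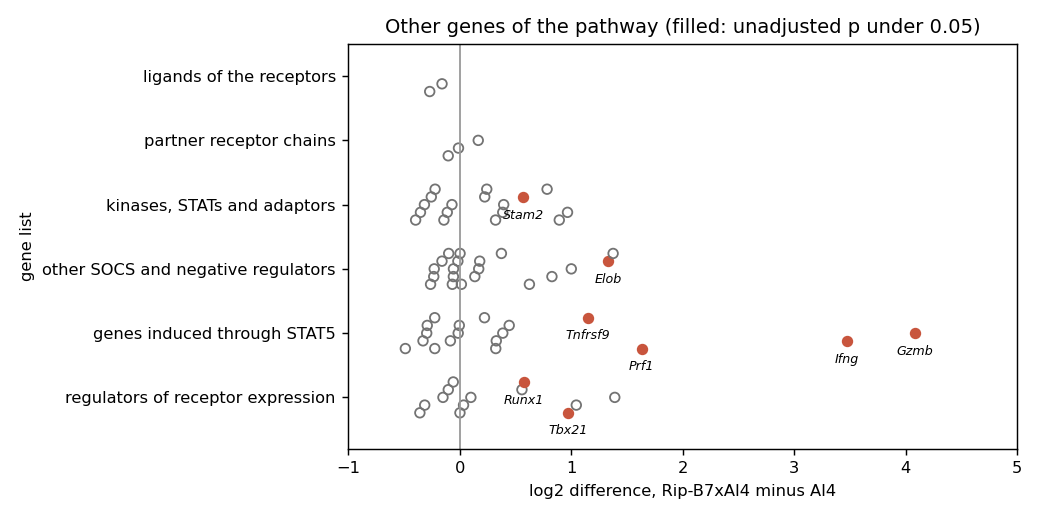
Log2 difference, Rip-B7xAI4 minus AI4 (x axis), of each tested gene of the 6 pathway lists (y axis), 1 circle per gene, with filled circles for an unadjusted p under 0.05 in limma. The 8 filled circles all lie to the right of 0, between 0.57 (Stam2) and 4.08 (Gzmb), and open circles lie on both sides.

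Over the 6 arrays, the genes whose values ran most like Il2rb were Rnaseh2b, Calr and Ubash3b, with Pearson r of 0.998, 0.996 and 0.991. Those most like Il7r were Trip11, Artn and Adck2 (r of 0.979, 0.978 and 0.977), and those most like Cish were Zc3h8, Heatr9 and Fbxw11 (0.986, 0.982 and 0.971). With 6 points and 13949 genes compared, 191 genes had an r over 0.9 with Il2rb, 85 with Il7r and 34 with Cish, and the arrays share their group and their cell composition.

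Markers of the sorted cells were present on all arrays, with Cd3e between 9.11 and 10.59 in AI4 and between 10.65 and 11.19 in Rip-B7xAI4, the one T cell marker of 12 whose groups did not overlap. In the T cell list 0 of 12 markers had an unadjusted p under 0.05 in the higher direction, beside 5.56% of all genes tested. In the lower direction 1 had, beside 3.17% of all genes tested. That one was the co-receptor gene Cd8b1, which read 10.48, 11.34 and 11.49 in AI4, against 9.53, 10.73 and 10.05 in Rip-B7xAI4, 2.00-fold lower, with a 95% interval of the log2 difference of -1.93 to -0.07 and limma adjusted p = 0.559 (unadjusted 0.0387). Cd8a, Lat and Cd6 also had negative differences, of -0.69, -0.80 and -0.85, with unadjusted p of 0.0939, 0.0817 and 0.0911 in limma. Foxp3, which marks regulatory T cells and so cells of high Il2ra, and Cd4 read 6.75 to 6.98 and 5.47 to 6.24 over all arrays, and the list of 4 CD4 and regulatory T cell markers had a mean of 6.86 to 7.01 in AI4, against 6.92 to 6.97 in Rip-B7xAI4. The summed linear signal of 19 myeloid markers was 1621 to 3117 in AI4, against 1990 to 15248 in Rip-B7xAI4, with Lyz2 at 11.40, 5.59 and 9.64 and Csf1r at 7.11, 5.49 and 8.81 in Rip-B7xAI4 replicates 1, 2 and 3. Lyz2 was at 4.73 to 7.57 and Csf1r at 5.77 to 6.09 in AI4. Neutrophil markers too were highest on Rip-B7xAI4 replicates 1 and 3, with list means of 8.57, 5.80 and 8.20 in Rip-B7xAI4 and 5.54 to 5.59 in AI4. On Rip-B7xAI4 replicate 2 the neutrophil mean thus lay above every AI4 array. The myeloid mean of that array, 6.04, lay inside the AI4 range of 5.92 to 6.42. The mean of 5 NK cell markers, of which CD8 T cells also express Klrk1, Nkg7 and Eomes, was 6.02 to 6.71 in AI4, against 7.24 to 7.47 in Rip-B7xAI4, while Ncr1, which defines NK cells, read 4.56 to 4.87 in AI4, against 4.43, 4.42 and 5.86 in Rip-B7xAI4. Klrb1c, the NK1.1 gene, read 4.62, 4.75 and 4.57 in AI4, against 6.18, 5.37 and 5.40 in Rip-B7xAI4, so for this marker the groups did not overlap, with a gap of 0.62. Both were too dim to be tested. B cell markers had means of 5.65 to 6.01 and 5.60 to 6.29, beta cell markers of 5.40 to 5.73 and 5.22 to 5.53 (Ins2 at 5.70 to 6.42 over all arrays), and acinar markers of 5.93 to 5.95 and 5.76 to 5.96. Dendritic cell markers stood at 6.20 to 6.47 in AI4 and at 6.95, 6.22 and 8.12 in Rip-B7xAI4, innate lymphoid and mast cell markers at 4.64 to 4.77 and 4.53 to 4.56, and endothelial and stromal markers at 6.35 to 6.50 and 5.84 to 6.28. Il2rb, Il2ra and Cish had their highest value on Rip-B7xAI4 replicate 1, the array with the highest myeloid mean. The other genes of the set, among them Il15ra, Il4ra and Socs3, which myeloid cells also express, were highest on an AI4 array by the probes used. The second probes of Socs2 and Socs3 were highest on Rip-B7xAI4 replicate 2, at 5.36 and 7.53. The part of myeloid RNA in these values was not tested beyond the fits given above.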

How the data were processed

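Total RNA of sorted cells was labelled with biotin, per the labels' protocols, for 6 single-colour arrays. Affymetrix Expression Console made the values, per the submitters' processing notes. The sources used here give neither its version nor its algorithm. What the authors deposited is 1 normalized log2 value per probe and array. The log2 scale was read from their range and is not stated. Array medians were 5.94 to 6.10, and values were used as deposited. The table held 28325 probes, of which 21760 had 1 gene symbol, 1621 several and 4944 none in the platform annotation. These gave 19929 genes, and 21669 probes matched a RefSeq gene (GRCm38.p6) by gene ID. The 30% of genes with the lowest mean (limit 5.471) were not tested. Titles of the samples gave the groups.

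The model was lmFit with eBayes of limma 3.58.1 (R 4.3.3), with a term for the group and two-sided tests over 13950 genes. Intervals are 95% and standard errors are limma's. The fit was tested on simulated data. Past the adjusted limit it recovered 22.4% of log2 changes of 1 and 88.6% of changes of 2, with 6.96% of its calls false. The number of arrays, 3 a group, limits precision, and p-values measure the spread between these pooled samples. The members and lists were chosen with earlier results of these data known. All members are named, and of each pathway list up to 4 genes by smallest unadjusted p under 0.05, with a fixed set of ligands, kinases, STAT5 genes, Socs1, Bcl2 and markers. For Il2rb, Il7r and Cish the 3 genes of highest r are named. The second probes of Socs2 and Socs3, Il4, Il13 and the marker list means were named in addition. Alternatives were the replicate block, leaving out arrays, quantile normalization, median centring, filters on dim genes of 0 or 50%, averaging the probes of a gene, every probe on its own, trended robust eBayes, array weights and a myeloid covariate (the mean of that marker list). The shift by the T cell marker mean was chosen after seeing the data. A pseudocount alternative was for linear values and did not apply. The labels do not say that a replicate number marks a shared day or litter, so replicate numbers were not taken as pairs. Deviations of same-numbered arrays from their group means had correlations of -0.08, 0.06 and -0.22. With 3 arrays a group these cannot decide whether arrays were paired. With the replicate block Il2ra differed by 0.88 ± 0.22 (SE, limma unadjusted p = 0.00922) and Il2rb by 1.08 ± 0.35 (limma unadjusted p = 0.0236).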

Additional observations from a re-analysis of the deposited data

How the results depend on the processing

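Precision rests on 3 arrays a group, and dim probes have no measure of background here. No member passed that limit in any of the 18 alternatives, and 148 of 161 values of members kept their sign. The count of members with an unadjusted p under 0.05, 2 in all, was 1 to 2 on leaving out single arrays. The 2 were Il2ra and Il21r without AI4 replicate 1, Il2rb and Il15ra without AI4 replicate 3, and Il2rb and Il7r without Rip-B7xAI4 replicate 2. The count was 3 with quantile normalization and with the T cell marker shift (Il7r added), 3 with array weights (Il15ra added), 1 with the 50% filter, which left Il2ra untested, 1 on leaving out both Rip-B7xAI4 arrays with myeloid transcripts (replicates 1 and 3) and 0 with the myeloid covariate. The members' median of -0.13 ran from -0.25 to 0.0094 without single arrays, and was 0.094 with the mean of a gene's probes and 0.040 with the T cell marker shift. The count of pathway genes, 8, was 5 to 10 without single arrays, 16 with array weights and 14 with the T cell marker shift. The share of all genes with an unadjusted p under 0.05 moved too, from 8.73% in the main fit. It was 5.48 to 11.2% without single arrays, 17.2% with array weights, 8.97% with the T cell marker shift and 4.01% with the myeloid covariate. All genes past the adjusted limit numbered 1, but 22 without Rip-B7xAI4 replicate 2, 38 with array weights and 353 with the T cell marker shift, where limma gave every gene the same SE of 0.467. With the replicate block 2 members and 6 pathway genes had an unadjusted p under 0.05, beside 7.12% of all genes. In that fit 0 of all genes passed the adjusted limit. The sign of Cish turned with array weights (-0.10), with the covariate (-0.038) and without both Rip-B7xAI4 arrays with myeloid transcripts (-0.11). Socs2 turned in the last 2 of these (-0.077 and -0.045), and without single arrays it ran from -0.063 to 0.21. Socs3 turned in the same 2 (0.087 and 0.073), with the mean of its probes (0.094) and with the T cell marker shift (0.040), and without single arrays it ran from -0.30 to 0.085. Il4ra ran from -0.48 to 0.044 without single arrays, positive only without AI4 replicate 3. Except where the text names it, the cause was not tested.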
